A study of Mus musculus with 6 samples.

Results

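Potassium channel genes encode the pore-forming and auxiliary subunits of the channels through which potassium ions leave or enter cells. The 79 genes described here were chosen by symbol and by count: protein-coding mouse genes whose symbol starts with Kcn followed by a subfamily letter, without Kcnj8 and Kcnj10, and with a mean deposited count of at least 10 over the 6 libraries. They are 79 of the 94 protein-coding Kcn genes, within 47728 genes that have a count in every library. Of the other 15, 2 were left out by name and 13 by their mean count. Just inside the threshold were Kcnj13 with a mean count of 10.17, Kcnj5 with 11 and Kcnrg with 12.5, and just outside were Kcnmb1 with 6.33, Kcnk7 with 4.83 and Kcnmb3 with 4.0. All 79 also passed the filter on low counts that was applied before testing.

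The study sequenced total RNA from frozen mouse brain cortex, with 3 libraries from FAD5x mice and 3 from C57BL/6 Control mice. FAD5x is a transgenic model of Alzheimer's disease, in which mutant human forms of the amyloid precursor protein and of presenilin are driven by a neuronal Thy1 promoter, so the model rests on overexpression in neurons that carry the promoter's activity. The labels call the Control mice wild type and give neither age nor sex for either group. They do not say that the libraries came from separate animals, and 2 of the FAD5x libraries, replicates 1 and 2, share the stem of their library names, so the spread behind each p-value is that between these libraries only and may be technical.

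Potassium channels set the resting potential of neurons and repolarise the membrane after an action potential. Voltage-gated (Kv), calcium-activated, inwardly rectifying (Kir) and two-pore-domain (K2P) channels each form a gene family, and most channels are assembled from several pore subunits together with auxiliary subunits that control trafficking and gating. In cortex different neuron classes use different sets, such as the fast Kv3 channels of parvalbumin interneurons and the dendritic Kv4 channels of pyramidal cells.

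Library depth ran from 17363946 to 24137936 counts, and the 79 genes held 0.455% to 0.556% of the counts of a library. Levels are given below as CPM, the usual depth-normalised count, with library totals adjusted by TMM factors (trimmed mean of M values), and always in the order of replicates 1, 2 and 3. Thy1, whose promoter drives the transgenes, was at 1476, 702 and 1750 CPM in FAD5x, where Control ranged from 345 to 532 CPM (adjusted p 0.0456, edgeR). Some libraries stood apart. Control replicate 1 held 3 Xist counts where the other 5 libraries held 10346 to 22631, and 3124 summed counts of 4 Y-linked genes where the others held 0 to 9. These counts read as male for Control replicate 1 and as female for the other 5, so only the Control group was mixed in sex by them. The part of sex in the group differences was not tested. FAD5x replicate 1 had high striatal neuron markers, with a summed level of 8 striatal markers of 1442 CPM against 159.9 to 221.3 CPM in Control and a lowest FAD5x value of 209.1 CPM. FAD5x replicate 2 lay within the Control range for the astrocyte marker Gfap and the microglia marker Trem2. Gfap was at 1508, 129 and 914 CPM in FAD5x, and Control ranged from 119 to 193 CPM. Trem2 was at 74.3, 13.7 and 56.3 CPM, and Control ranged from 6.39 to 15.3 CPM. C1qa in FAD5x replicate 2, at 73.3 CPM, was above the Control range of 17.5 to 26.7 CPM. Cell type markers also differed between the groups: all 9 microglia and all 10 oligodendrocyte markers had fold changes above 0, of which 1 (C1qa) and 3 (Mobp, Ermn and Myrf) were called higher, and 1 of the 7 oligodendrocyte precursor markers, Gpr17, was called lower (log2 fold change -1.71, adjusted p 0.0147 in edgeR). The 12 general neuron markers had a median log2 fold change of 0.23 with 5 below 0, and the 1 called was Thy1 itself. In bulk tissue, fewer cells of a type and less RNA per cell cannot be told apart.

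Across the whole set, 2 of the 79 genes were called lower in FAD5x and none was called higher. The called genes were Kcnh5 and Kcnk9, the subunits of the EAG2 voltage-gated channel and of the TASK-3 leak channel. Both calls were lost without Control replicate 1 and with the replicate number as a block. In edgeR's quasi-likelihood test, with an adjusted p below 0.05 over 17074 genes, the 2 lower calls are 2.53% of the set, where 1.39% of all genes tested were called lower. The count of 0 higher calls stands beside 1.76% of all genes called higher. Limma-voom called 2 lower and 0 higher, where 1.32% of all genes were called lower and 1.45% higher. DESeq2 gave 78 of the 79 an adjusted p and called 4 lower and 0 higher, where 4.23% of all genes with an adjusted p were called lower and 4.47% higher. At an unadjusted p below 0.05 in edgeR, 12 of the 79 were lower (15.2%, against 10.1% of all genes) and 4 were higher (5.06%, against 11.2%). All 3 FAD5x libraries lay below all 3 Control libraries for 13 members (16.5%, against 13.2% of all genes). The reverse held for 2 members, Kcnip3 and Kcnab2 (2.53%, against 14.1%). With 3 libraries against 3, an exact permutation test of a single gene cannot give a p below 0.1.

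Fold changes were small for most of the genes. On the log2 scale, FAD5x over Control, 46 were below 0 and 33 above 0, with a median of -0.04 and a range of -1.70 to 1.03, and 59 differed by less than 0.5 in either direction. The median of all tested genes was 0.02. By role, the 58 pore subunits other than silent modifiers had a median of -0.12, with 37 below 0. The 9 silent modifier subunits had a median of -0.15, and the 12 genes of the auxiliary group, Kcnrg included, had a median of 0.21 with 8 above 0. The difference between these role groups was not tested.

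**Figure D1:**
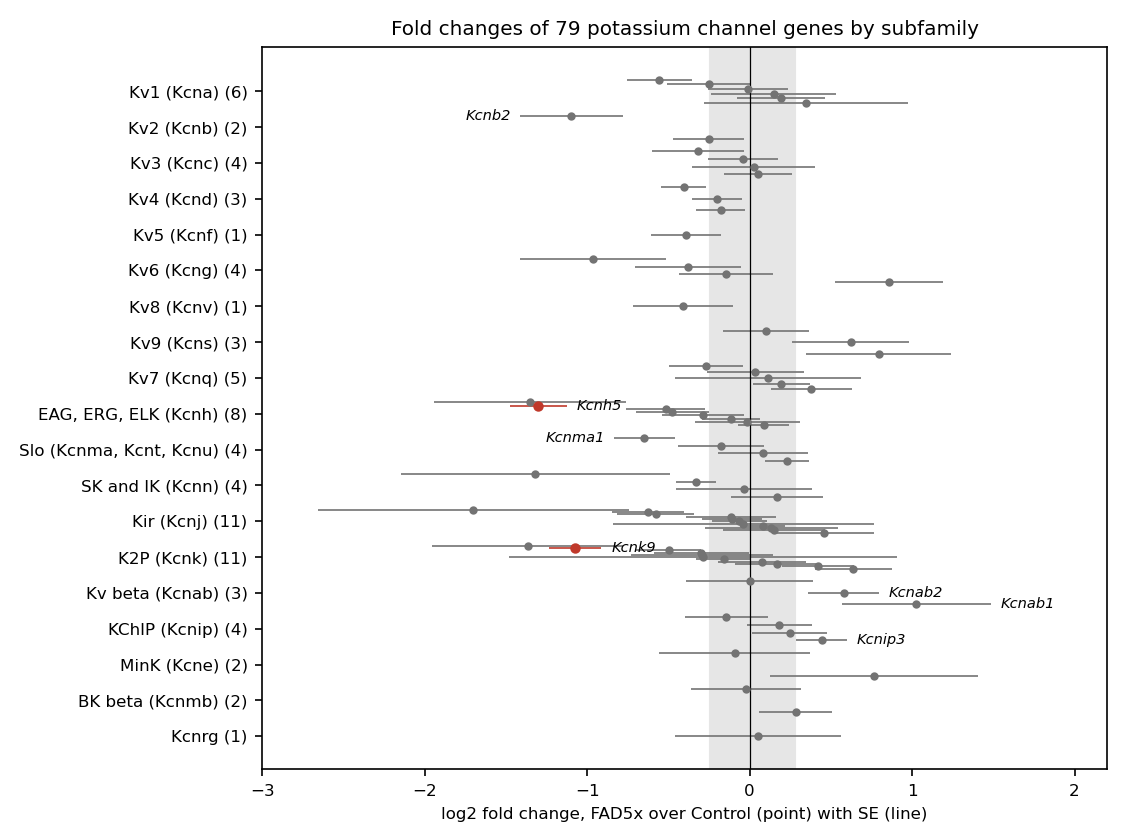
Log2 fold change of FAD5x over Control (x axis) for each of the 79 genes by subfamily (y axis, number of genes in brackets). Points are fitted fold changes and lines their standard errors, red marks the 2 called genes Kcnh5 and Kcnk9, and the grey band spans the middle quartiles of all tested genes, -0.25 to 0.28.

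The Kcnh subfamily encodes the EAG, ERG and ELK channels, slowly or unusually gated voltage-dependent channels that act below or near the firing threshold. Of its 8 genes, 7 had fold changes below 0, the median was -0.38, and 1 was called. Kcnh5 encodes EAG2, which in cortex is known from pyramidal cells, and Kcnh1 encodes its closest relative EAG1. The upstream sequences of this pair are shown because Kcnh5 was called lower and its relative was not called. They are the 250 bases before the annotated start, from RefSeq on GRCm38.p6, 5′ to 3′ on the strand of the gene, at chr12:75177333-75177582 on the minus strand for Kcnh5 and chr1:192190527-192190776 on the plus strand for Kcnh1. Capitals mark matches to a searched motif on either strand.
Kcnh5: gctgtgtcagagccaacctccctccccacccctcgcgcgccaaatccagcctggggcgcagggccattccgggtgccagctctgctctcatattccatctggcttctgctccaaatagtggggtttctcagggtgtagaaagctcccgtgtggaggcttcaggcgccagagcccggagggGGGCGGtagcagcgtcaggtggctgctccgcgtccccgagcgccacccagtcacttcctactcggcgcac
Kcnh1: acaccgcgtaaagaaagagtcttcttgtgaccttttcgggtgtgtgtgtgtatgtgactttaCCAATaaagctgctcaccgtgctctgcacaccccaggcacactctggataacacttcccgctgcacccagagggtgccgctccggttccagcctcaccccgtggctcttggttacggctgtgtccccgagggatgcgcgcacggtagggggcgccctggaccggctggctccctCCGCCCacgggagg

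The Kcnh5 window is 65.6% GC with 16 CpG dinucleotides, and the Kcnh1 window is 62.0% GC with 17. Each holds a GC box (GGGCGG, read as CCGCCC on the other strand), starting 70 bases before the start in Kcnh5 and 14 bases before it in Kcnh1, and Kcnh1 also holds a CCAAT box. The other motifs searched on both strands were TATAAA, the E-box CACGTG and the cAMP response element TGACGTCA, and none of these letters occur in either window. None of the 5 motifs contains another. A promoter entry was found for 56 of the 79 genes, with 79 windows among 32851 in all. The GC box occurs in 48.1% of the members' windows and 32.7% of all windows, CCAAT in 29.1% and 33.8%, TATAAA in 3.8% and 12.4%, CACGTG in 7.59% and 6.02%, and TGACGTCA in 0% and 1.55%. The median GC content was 60.0% in the members' windows and 52.4% in all. These matches describe the sequence, and binding was not measured.

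The Kcnh5 level was 8.95, 8.29 and 7.26 CPM in the FAD5x libraries, against 22.5, 16.7 and 21.2 CPM in Control. The groups did not overlap, and the highest FAD5x library lay well under the lowest Control library. The mean was 8.16 ± 0.85 CPM in FAD5x and 20.2 ± 3.01 CPM in Control (SD, n = 3 each). Kcnh5 fell by 1.30 on the log2 scale (SE 0.17), 2.47-fold lower in FAD5x, with an adjusted p of 0.0105 in edgeR. The 8 excitatory neuron markers had a median of -0.23, 0.42 and -0.58 from the Control mean on the log2 scale in the FAD5x libraries and -0.40, 0.02 and 0.47 in Control, and the part of excitatory neurons in the Kcnh5 values was not tested. The call held in 17 of 19 alternative settings, in which the adjusted p ran from 1.33e-07 to 0.0672. It was lost without Control replicate 1, the library with few Xist counts, at an adjusted p of 0.0544, and with the replicate number as a block, at 0.0672.

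Kcnh1 was at 81.4, 153 and 66.7 CPM in FAD5x, against 91.5, 81.9 and 131 CPM in Control. Its groups overlapped fully, and FAD5x replicate 2 held the highest of the 6 values. The log2 fold change was -0.02 (SE 0.32, adjusted p 0.986 in edgeR), and the difference between the Kcnh1 and Kcnh5 changes was not itself tested. Among the ELK genes, Kcnh8 was at 0.577, 0.145 and 0.888 CPM in FAD5x, against 1.596, 1.52 and 1.01 CPM in Control. Its groups did not overlap, its mean count was 18, and its log2 fold change was -1.35 (SE 0.59, adjusted p 0.229 in edgeR). Kcnh3, the ELK gene with the highest level in the subfamily, was at 168, 240 and 197 CPM in FAD5x, against 202, 256 and 196 CPM in Control (log2 fold change -0.11, SE 0.18). The ERG genes Kcnh2, Kcnh6 and Kcnh7 had log2 fold changes of -0.29, -0.52 and -0.48, none of which passed the test, and for Kcnh6 the groups did not overlap. Kcnh4, the third ELK gene, was the only one of the 8 above 0, at 0.09.

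**Figure D2:**
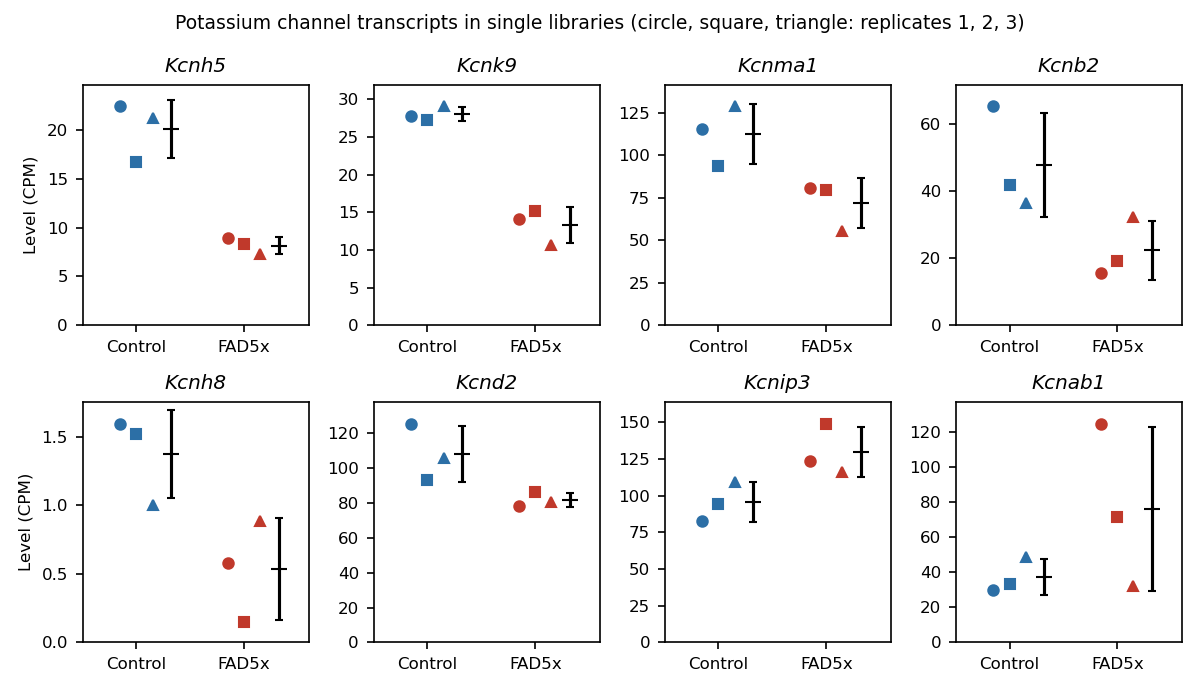
Level (CPM, linear axis from 0) of selected potassium channel genes in each of the 3 FAD5x and 3 Control libraries. Points are libraries, and the crossbar and whiskers are the group mean ± SD. The 2 groups do not overlap for any of the panels shown except Kcnab1, and Kcnh5 and Kcnk9 are the called genes.

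K2P channels, encoded by the Kcnk genes, carry the background leak current that holds neurons near rest. Kcnk9 encodes TASK-3, which is closed by extracellular acid. Kcnk9 was at 14.1, 15.2 and 10.7 CPM in FAD5x, against 27.8, 27.3 and 29.1 CPM in Control. The 3 Control values lay close together, and every FAD5x value was far below them. The mean was 13.3 ± 2.36 CPM in FAD5x and 28.1 ± 0.91 CPM in Control (SD, n = 3 each), and Kcnk9 fell by 1.07 on the log2 scale (SE 0.16), 2.10-fold lower, with an adjusted p of 0.0147 in edgeR. The call held in 15 of 19 alternative settings, with adjusted p values from 3.79e-06 to 0.0875. It was lost when Control replicate 1, 2 or 3 was left out, at adjusted p values of 0.0688, 0.0805 and 0.0569, and with the replicate block at 0.0875. The log2 fold change of Kcnk9 was smallest in size with length and GC trends taken out, at -0.85 (adjusted p 0.0376 in edgeR). Neither Kcnh5 nor Kcnk9 shares an exon base with another gene in the annotation used.

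The other 10 Kcnk genes did not pass the test. Kcnk3, which encodes the TASK-1 partner of TASK-3, was at 20.6, 48.0 and 30.2 CPM in FAD5x, against 31.1, 30.8 and 31.9 CPM in Control. The Control libraries were nearly equal, and the FAD5x libraries lay on both sides of them. Kcnk12, which encodes THIK-2, was at 11.3, 19.7 and 15.5 CPM in FAD5x, against 21.9, 21.9 and 21.6 CPM in Control, with no overlap (log2 fold change -0.50, SE 0.20, adjusted p 0.203 in edgeR). Kcnk13 encodes THIK-1, the leak channel of microglia, and was at 14.7, 9.16 and 13.4 CPM in FAD5x, against 9.80, 7.08 and 7.04 CPM in Control (log2 fold change 0.64, SE 0.24, adjusted p 0.17). Its FAD5x replicates 1 and 3 were high, as was the median of the 9 microglia markers in those libraries, at 1.12 and 0.69 above the Control mean on the log2 scale against 0.30 in replicate 2. In Control replicates 1, 2 and 3 that median was -0.33, 0.41 and -0.19, whereas Kcnk13 was highest in Control replicate 1. The summed level of the 9 markers was 374.6 to 847.5 CPM in FAD5x and 253.2 to 388.5 CPM in Control. The part of microglia in the Kcnk13 values was not tested. Kcnk1, the Kcnk gene with the highest level per kilobase, was at 68.9, 89.4 and 59.9 CPM in FAD5x, against 74.3, 78.2 and 91.3 CPM in Control (log2 fold change -0.16, SE 0.17).

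Kv1 to Kv4 genes encode the classical voltage-gated pores, and none of these 15 genes passed the test. Kv2 channels form clusters on the neuronal soma and carry much of the delayed rectifier current. Kcnb2, which encodes Kv2.2, was at 15.7, 19.1 and 32.3 CPM in FAD5x, against 65.2, 41.6 and 36.3 CPM in Control. The groups did not overlap, but FAD5x replicate 3 and Control replicate 3 lay close to each other. The log2 fold change was -1.10 (SE 0.31), with an adjusted p of 0.107 in edgeR. Over the alternative settings the adjusted p ran from 0.00987 in DESeq2 to 0.323 without FAD5x replicate 2 and Control replicate 1 together. It was 0.0295 without FAD5x replicate 3 (log2 fold change -1.46), 0.311 without Control replicate 1 (-0.80), 0.279 with length and GC trends taken out (-0.81) and 0.223 with the replicate block.

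Kv4 channels carry the dendritic A-type current, which damps signals that travel back into dendrites. Kcnd2, which encodes Kv4.2, was at 78.2, 86.1 and 80.3 CPM in FAD5x, against 125, 93.1 and 106 CPM in Control. All FAD5x values were lower than all Control values, by a small margin at Control replicate 2. The log2 fold change was -0.41 (SE 0.14, adjusted p 0.149 in edgeR), and those of Kcnd1 and Kcnd3 were -0.18 and -0.20. Kv1 channels sit on axons, where they limit excitability. Of the 6 Kcna genes 3 were below 0 and 3 above, and Kcna2, the highest per kilobase, was at 201, 329 and 164 CPM in FAD5x, against 271, 232 and 322 CPM in Control (log2 fold change -0.25, SE 0.26). Kcna3, which is known from lymphocytes and microglia as well as neurons, was at 6.93, 5.77 and 5.12 CPM in FAD5x, against 9.25, 8.88 and 8.11 CPM in Control, with no overlap (log2 fold change -0.56, SE 0.20, adjusted p 0.162). The part of microglia in the Kcna3 values was not tested.

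Kv3 channels let fast-spiking interneurons fire at high rates, and their 4 genes had a median log2 fold change of -0.01. Kcnc1 was at 185, 313 and 210 CPM in FAD5x, against 273, 204 and 252 CPM in Control (log2 fold change -0.04, SE 0.22). Kcnc1, Kcnc2 and Kcnc4 were each highest in FAD5x replicate 2. Without FAD5x replicate 2, Kcnc2 was called lower, with a log2 fold change of -0.75 and an adjusted p of 0.0181 in edgeR, against -0.32 with all libraries, and its adjusted p ran up to 0.846 over the other settings. The median of the 8 interneuron markers was 0.17 above the Control mean on the log2 scale in FAD5x replicate 2 and at 0.10 and -0.11 in replicates 1 and 3. Among them Pvalb, the parvalbumin gene, was at 19.3, 60.6 and 20.5 CPM in FAD5x, against 11.9, 15.1 and 31.6 CPM in Control. Its log2 fold change was 0.78 (SE 0.55, adjusted p 0.479 in edgeR), and 5 of the 8 markers were below 0. The part of interneurons in the Kcnc values was not tested.

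Silent modifier subunits of the Kv5, Kv6, Kv8 and Kv9 groups form no channel alone but join Kv2 subunits and alter their gating. None of the 9 passed the test. Kcnf1, the most abundant per kilobase, was at 99.6, 122 and 167 CPM in FAD5x, against 206, 147 and 158 CPM in Control (log2 fold change -0.39, SE 0.21). Kcnv1 was at 71.4, 99.4 and 47.0 CPM in FAD5x, against 70.6, 88.9 and 130 CPM in Control (log2 fold change -0.41, SE 0.31). The SD within each Kcnv1 group was as large as the difference between the means. The 3 Kcns genes were all above 0, with a median of 0.62, and Kcns1 was at 19.4, 29.1 and 12.7 CPM in FAD5x, against 5.56, 11.3 and 18.5 CPM in Control (log2 fold change 0.79, SE 0.45).

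The fold changes of the Kv6 genes lay on both sides of 0. Kcng4 was at 3.92, 7.51 and 1.78 CPM in FAD5x, against 10.1, 7.87 and 7.83 CPM in Control, and a narrow gap separated the groups (log2 fold change -0.97, SE 0.45, adjusted p 0.265 in edgeR). Kcng2 was at 12.9, 20.4 and 7.47 CPM in FAD5x, against 8.15, 7.64 and 6.71 CPM in Control (log2 fold change 0.86, SE 0.33, adjusted p 0.191). Only FAD5x replicates 1 and 2 were above the Control range, and without replicate 3 Kcng2 was called higher at an adjusted p of 0.0422, where the other settings reached 0.414. Kcng1, the highest of the Kv6 genes per kilobase, was at 35.3, 16.04 and 30.9 CPM in FAD5x, against 23.6, 41.5 and 41.8 CPM in Control (log2 fold change -0.38, SE 0.32).

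Kv7 channels, encoded by the Kcnq genes, carry the M-current that muscarinic receptors switch off. None of the 5 passed the test, and 4 were above 0. Kcnq3, which encodes an M-current subunit, was at 153, 174 and 110 CPM in FAD5x, against 141, 158 and 229.5 CPM in Control. The groups overlapped (log2 fold change -0.27, SE 0.23).

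Channels opened by calcium or sodium include the large-conductance BK channel, the sodium-activated Slack channels and the small-conductance SK channels. Kcnma1, the BK pore gene, was at 80.6, 79.6 and 55.1 CPM in FAD5x, against 115, 93.7 and 129 CPM in Control. The groups did not overlap, with FAD5x replicate 3 the lowest. The log2 fold change was -0.65 (SE 0.19), with an adjusted p of 0.0995 in edgeR. Over the alternative settings the adjusted p ran from 0.0266 with no filter on low counts to 0.329 with length and GC trends taken out, where the log2 fold change was -0.36. It was 0.0273 in DESeq2 and 0.227 with the replicate block. Kcnt1, the Slack gene, was at 170, 155 and 190 CPM in FAD5x, against 145, 135 and 160 CPM in Control (log2 fold change 0.23, SE 0.14). Kcnn2, which encodes SK2, was at 25.9, 30.7 and 27.3 CPM in FAD5x, against 34.1, 36.5 and 34.9 CPM in Control. Its groups did not overlap, although the difference was small (log2 fold change -0.33, SE 0.12, adjusted p 0.173 in edgeR).

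Kir channels, encoded by the Kcnj genes, pass potassium more readily inward than outward, and some of them are opened by G proteins or closed by ATP. None of the 11 members passed the test, and 7 were below 0. Kcnj4, the highest pore gene of the whole set per kilobase, was at 147, 155 and 183 CPM in FAD5x, against 164, 147 and 147 CPM in Control (log2 fold change 0.08, SE 0.14). Kcnj12, which encodes Kir2.2, was at 10.02, 13.7 and 7.47 CPM in FAD5x, against 16.8, 15.1 and 16.2 CPM in Control, with no overlap (log2 fold change -0.62, SE 0.22, adjusted p 0.158 in edgeR). Among the G protein-gated genes, Kcnj6 had a log2 fold change of -0.58, Kcnj3 of -0.11 and Kcnj9 of 0.15. Kcnj13 was at 0.247, 0 and 0.522 CPM in FAD5x, against 0.716, 1.52 and 0.280 CPM in Control, at the lowest mean count of the set, and its log2 fold change of -1.70 has an SE of 0.96. The left-out genes Kcnj8, a gene of pericytes and smooth muscle, and Kcnj10, the Kir4.1 gene of astrocytes, had log2 fold changes of 0.32 (SE 0.36, adjusted p 0.652) and -0.35 (SE 0.22, adjusted p 0.405) in edgeR.

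Auxiliary subunits bind the pore subunits and control their trafficking and gating, and none of these genes passed the test. Kcnip3 encodes KChIP3, a calcium-binding partner of Kv4 pores that is also known as calsenilin for its binding to presenilin. Kcnip3 was at 124, 149 and 117 CPM in FAD5x, against 82.6, 94.2 and 110 CPM in Control. The groups did not overlap, and the log2 fold change was 0.44 (SE 0.16, adjusted p 0.153 in edgeR). Kcnip2, the most abundant KChIP gene per kilobase, was at 152, 154 and 96.3 CPM in FAD5x, against 137, 109 and 108 CPM in Control (log2 fold change 0.18, SE 0.20). Kcnip1 and Kcnip4 had log2 fold changes of -0.14 and 0.25.

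The Kcnab genes encode the Kv beta subunits, cytoplasmic partners of Kv1 channels that help bring them to axons. Kcnab2, the most abundant gene of the set per kilobase, was at 450, 695 and 420 CPM in FAD5x, against 296, 378 and 373 CPM in Control. All FAD5x libraries were above all Control libraries, and FAD5x replicate 2 stood highest (log2 fold change 0.58, SE 0.22, adjusted p 0.178 in edgeR). Kcnab1 was at 125, 71.5 and 31.9 CPM in FAD5x, against 30.0, 33.2 and 48.8 CPM in Control. Its FAD5x values were spread widely, from inside the Control range in replicate 3 to the highest level in replicate 1 (log2 fold change 1.03, SE 0.46, adjusted p 0.261). Without replicate 3 it was called higher, at an adjusted p of 0.0371, where the other settings reached 0.651. FAD5x replicate 1 is also the library with the high striatal markers, whose median was 3.34 above the Control mean there and -0.01 and -0.02 in FAD5x replicates 2 and 3 on the log2 scale, and the part of striatal RNA in the Kcnab1 value was not tested. Kcnk2, the TREK-1 leak channel gene, was likewise highest in that library, at 81.4 CPM against 51.1 and 49.4 CPM in the other FAD5x libraries and 37.0 to 53.2 CPM in Control.

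Kcnab3 was at 28.1, 62.8 and 83.8 CPM in FAD5x, against 77.02, 42.5 and 55.1 CPM in Control, with overlapping groups. The MinK and BK beta genes and Kcnrg were at lower levels. Kcnmb4, the neuronal BK beta subunit gene, was at 14.1, 20.3 and 14.7 CPM in FAD5x, against 9.80, 15.2 and 15.3 CPM in Control (log2 fold change 0.28, SE 0.23). Kcne1l was at 7.46, 1.26 and 6.58 CPM in FAD5x, against 4.51, 2.92 and 1.57 CPM in Control, a spread within FAD5x larger than the difference (log2 fold change 0.77, SE 0.64). Kcnrg, a soluble protein with the tetramerisation domain of Kv pores, was at 0.412, 0.581 and 0.993 CPM in FAD5x, against 0.551, 0.843 and 0.503 CPM in Control (log2 fold change 0.05, SE 0.51).

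Kcnj13 and 3 further pore genes at low counts varied by library, and none passed the test. Kcnk5, which encodes the TASK-2 leak channel, was at 0.330, 0.291 and 0.836 CPM in FAD5x, against 1.49, 1.63 and 0.615 CPM in Control. Kcnn4, the intermediate-conductance channel gene of blood and immune cells, was at 0.371, 0.0969 and 1.15 CPM in FAD5x, against 2.48, 0.899 and 0.615 CPM in Control. Kcnk15 was at 0.371, 0.0969 and 5.80 CPM in FAD5x, against 4.46, 1.63 and 1.45 CPM in Control, so its lowest and highest values were both in FAD5x. All 4 of these genes were lowest in FAD5x replicate 2, but they were named after their values were seen. Of the other pore genes with mean counts up to 43, Kcnh8 and Kcnq1 were also lowest in that library. Kcnj5 was lowest in FAD5x replicate 3, and Kcnj14 was highest in FAD5x replicate 2. All 7 meningeal fibroblast markers had fold changes below 0, with medians of -1.73, -2.90 and -0.63 from the Control mean on the log2 scale in the FAD5x libraries, 0.17, 0.52 and -0.67 in Control, and a summed level of 25.44 to 110 CPM in FAD5x and 143.4 to 425.4 CPM in Control. The part of meningeal tissue in these genes was not tested.

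Levels of different genes were compared per kilobase of exon, as CPM per kb averaged over the libraries. The highest were Kcnab2 at 78.1 and Kcnj4 at 72.9 CPM per kb, followed by Kcnh3 at 36.4, Kcnip2 at 36.2 and Kcnk1 at 34.5 CPM per kb. The order within the first pair rests on FAD5x, since the Control means were 62.6 for Kcnab2 and 70.9 for Kcnj4 and the FAD5x means 93.5 and 75.02. Of the 79 genes, 28 were at or above 10 CPM per kb and 12 were below 1, with a median of 5.21. The called genes were among the less abundant, Kcnh5 at 3.49 and Kcnk9 at 1.68 CPM per kb.

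**Figure D3:**
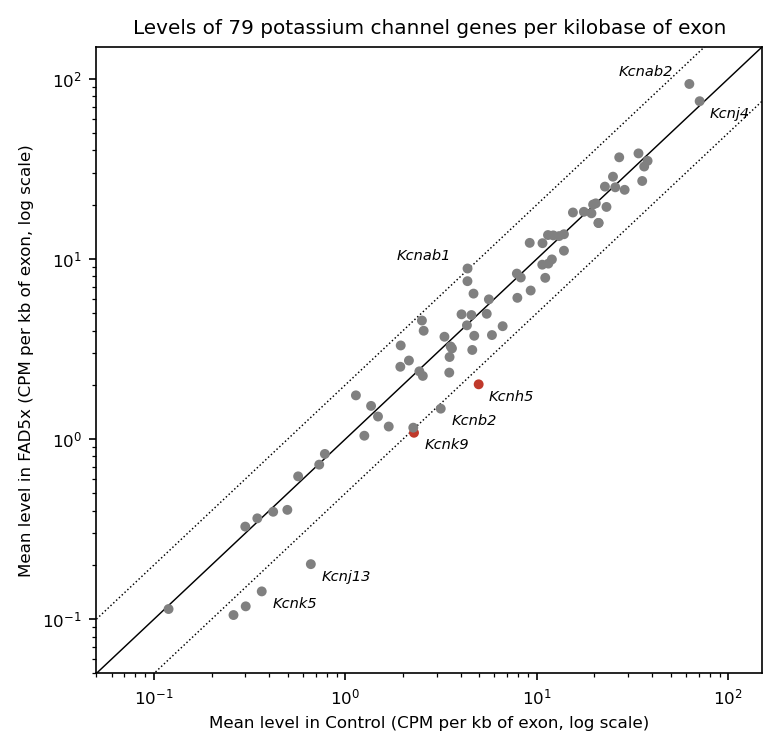
Mean level per kilobase of exon in FAD5x (y axis) against Control (x axis), both in CPM per kb on log scales, with one point per gene and the called genes in red. The solid line marks equal levels and the dotted lines a 2-fold difference, and Kcnh5 and Kcnk9 lie below the lower dotted line, while the genes above 10 CPM per kb in Control lie between the dotted lines.

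The libraries differed in how far the set as a whole moved. The median gene of the set lay at -0.20, 0.09 and -0.19 from the Control mean on the log2 scale in FAD5x replicates 1, 2 and 3, and at -0.01, -0.05 and 0.05 in Control replicates 1, 2 and 3. FAD5x replicate 2 held the highest of the 6 values for 28 of the 79 genes (35.4%, against 23% of all tested genes), and FAD5x replicate 3 the lowest for 27 (34.2%, against 20.7%). The general neuron markers were also highest in FAD5x replicate 2, with a median of 0.60 above the Control mean against 0.08 and -0.07 in FAD5x replicates 1 and 3. The part of neuronal RNA in this spread was not tested.

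**Figure D4:**
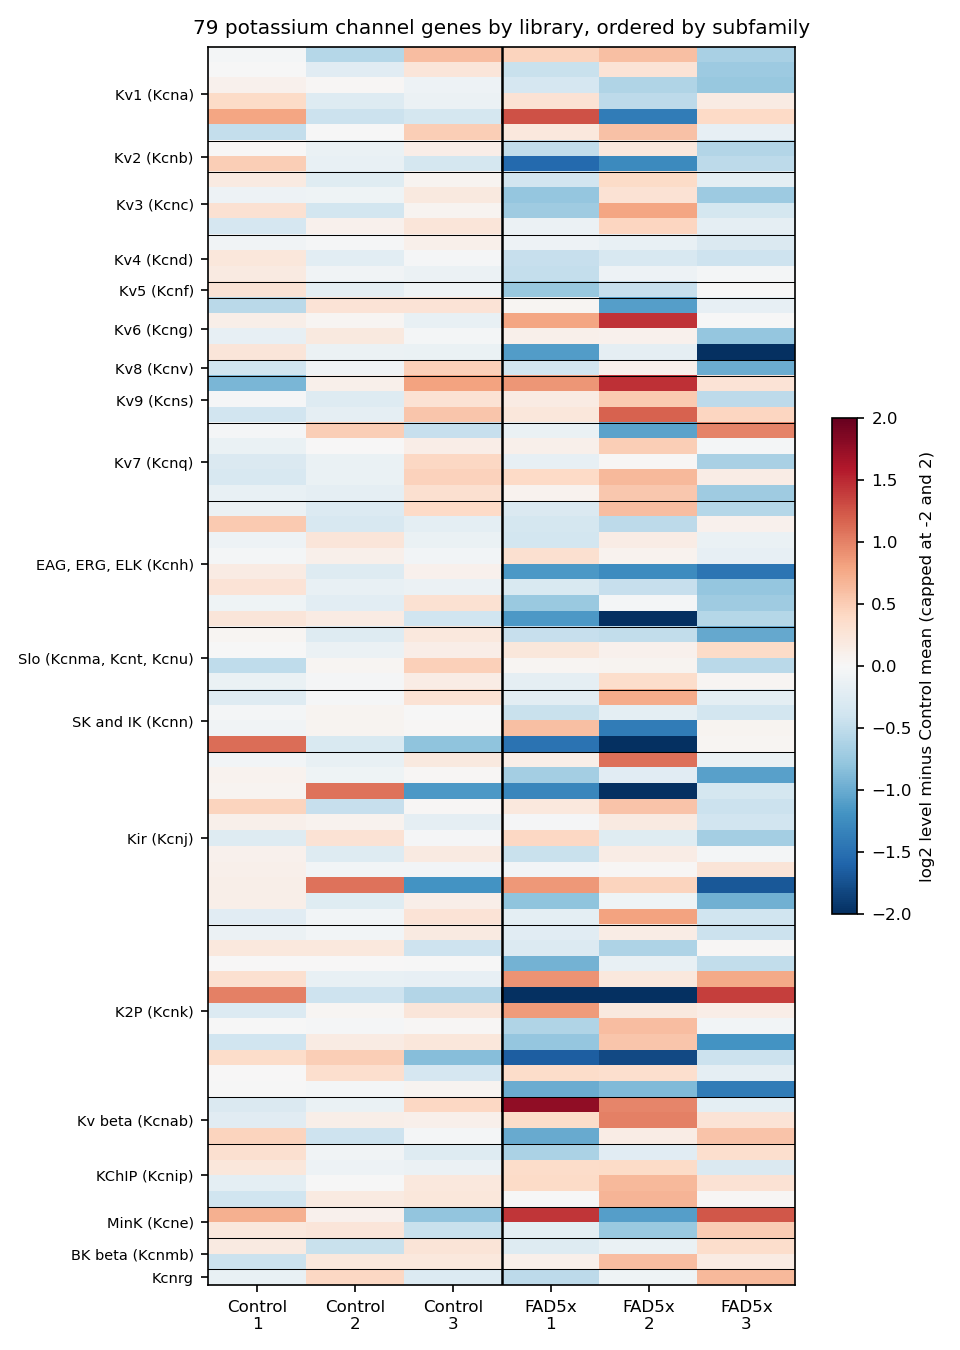
Level of each of the 79 genes (1 line per gene, labelled by subfamily) in each of the 6 libraries (columns) as the log2 difference from the gene's Control mean. FAD5x replicate 2 holds the highest value for 28 genes and FAD5x replicate 3 the lowest for 27.

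Leaving out FAD5x replicate 2 or 3 changed the count of calls, while without FAD5x replicate 1 the calls were Kcnh5 and Kcnk9 as before. Without FAD5x replicate 2, 8 of the 79 genes were called lower and 0 higher in edgeR, where 2.18% of all genes tested were called lower and 3.41% higher. Kcnh5 and Kcnk9 were among the 8, and the others were Kcnc2, Kcng4, Kcnh7, Kcnj6, Kcnj12 and Kcnk4. Kcnj6 and Kcnj12 encode the Kir3.2 and Kir2.2 pores, and without that library their log2 fold changes were -0.88 and -0.86, with adjusted p values of 0.0207 and 0.0334, where the other settings reached 0.465 and 0.383. Without FAD5x replicate 3, 3 genes were called lower (Kcnb2, Kcnh5 and Kcnk9) and 2 higher (Kcnab1 and Kcng2), where 1.8% of all genes were called lower and 1.62% higher. Without FAD5x replicate 2 and Control replicate 1 together, a setting chosen after seeing the data, 4 were called lower, namely Kcnc2, Kcnh5, Kcnk4 and Kcnk9, where 1.15% of all genes were called lower.

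No gene of the partner and other ion channel lists passed the edgeR test. Of 22 genes for proteins that bind or cluster Kv channels, 0 were called in edgeR, 14 were below 0 and the median log2 fold change was -0.09. At an unadjusted p below 0.05, 5 of them were lower and 2 higher, and limma-voom called 0 and DESeq2 4 lower and 1 higher. The shares over all genes stand beside the counts of this and the following lists. They were 10.1% lower and 11.2% higher at that unadjusted p in edgeR, and 4.23% lower and 4.47% higher in DESeq2 calls. No list was tested as a set. Dlg4, the PSD-95 scaffold gene, was at 780, 904 and 664 CPM in FAD5x, against 784, 1029 and 878 CPM in Control, with overlapping groups. Dlg2, the PSD-93 scaffold gene, was at 360, 347 and 260 CPM in FAD5x, against 447, 597 and 511 CPM in Control (log2 fold change -0.69, SE 0.18, adjusted p 0.0835). Cntn2, the gene of this list with the smallest adjusted p, went the other way. It was at 210.8, 162.3 and 157.2 CPM in FAD5x, against 87.7, 63.04 and 119.5 CPM in Control (log2 fold change 0.97, SE 0.24, adjusted p 0.0671 in edgeR). The 10 sodium channel genes had a median of -0.12 and the 18 calcium channel genes a median of -0.26 with 14 below 0, and 0 of either list were called in edgeR. At an unadjusted p below 0.05, 1 sodium channel gene was lower and 2 were higher, and 4 calcium channel genes were lower and 1 was higher. Limma-voom called 0 in both lists, and DESeq2 called 1 sodium channel gene higher and 2 calcium channel genes lower. Of the 5 genes of the HCN pacemaker list 0 were called in edgeR and limma-voom, 1 was lower and 1 higher at an unadjusted p below 0.05, and DESeq2 called 1 in each direction. Hcn2, a main pacemaker subunit of cortical neurons, was at 221, 248 and 196 CPM in FAD5x, against 153, 164 and 148 CPM in Control, without overlap (log2 fold change 0.52, SE 0.14, adjusted p 0.0831). Hcn4, the slowest-gating subunit of the family, was at 2.89, 1.502 and 6.17 CPM in FAD5x, against 20.04, 12.6 and 8.11 CPM in Control, also without overlap and in the other direction (log2 fold change -1.96, SE 0.53, adjusted p 0.0955).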

How the data were processed

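RNA was isolated from frozen cortex with TRIzol and columns, per the labels' protocols, and library preparation and strandedness are not given in the sources used here. The submitters' processing notes name STAR 2.7.11b, cutadapt, limma, featureCounts and edgeR 3.38.4, and the build GRCm39, without order or parameters. The values deposited by the authors are raw counts of reads per gene, and 1 line with a cell that was not a number was left out. Libraries were matched by the library names in the labels. Replicates of a group differed by more than sampling noise (chi-square per degree of freedom 13.5 to 42.2), so none was a copy of another. Each was counted as 1 sample as labelled, which does not show that they are separate animals.

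Symbols, types and exon lengths came from GENCODE M21, an annotation of an earlier build, matched by identifier for 47309 of 47728 genes. Exon lengths and exon overlaps rest on its coordinates in that build, and not on the build GRCm39 that the submitters name. By that annotation 53 of the 79 genes share no exon base with another gene, and 7, among them Kcnj13, Kcna6 and Kcnmb4, share at least 10%. Counts of such genes are uncertain. Promoter windows came from RefSeq on GRCm38.p6.

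The test was that of edgeR 4.0.16, run under R 4.3.3 (quasi-likelihood F-test, robust prior, filterByExpr, TMM, two-sided, Benjamini-Hochberg over 17074 genes, called below 0.05). Limma 3.58.1 and DESeq2 1.42.0, other scalings, filters and thresholds, length and GC trends, a replicate block and each library left out were alternatives. In simulated counts for 17074 genes, 72% of 100 genes changed 2-fold and 99% of 100 changed 4-fold were called, with 21 false calls, and 0 were called with no change. The changed genes were drawn only from those above the median level, so these shares do not describe genes at lower counts. No simulated library was made to stand apart from its group.

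The members and lists were chosen with earlier results of these data known. Named were called members, the most abundant member of each subfamily per kilobase, the 4 uncalled members with the smallest p, non-overlapping members with a log2 fold change of at least 1 in size, and the 2 most abundant genes, or the called ones, of each list. Other genes were named after their values were seen. Some genes that the rule takes are among those not reported by name.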

Additional observations from a re-analysis of the deposited data

How the results depend on the processing

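The count of genes called lower was 2 in edgeR (1.39% of all genes tested), 4 in DESeq2 (4.23%), 3 with no filter on low counts (1.62%) and 3 at a threshold of 0.1 (3.33%). It was 0 with the replicate number as a block (replicate block), where calls over all genes dropped to 0.211%. It ran from 0 to 8 when libraries were left out, with 0 without Control replicate 1 (0.317% of all genes), 1 without Control replicate 2 (0.238%) or 3 (0.451%), 2 without FAD5x replicate 1 (0.587%), and 4 without FAD5x replicate 2 and Control replicate 1 together, the setting chosen after seeing the data. The count called higher was 0 in edgeR and ran from 0 to 2 when libraries were left out. The planned settings besides these left both counts as they were. The median log2 fold change of the set was below 0 in all 19 settings. It ran from -0.20 in the setting chosen after seeing the data to -0.0041 with length and GC trends taken out. The median of all tested genes was 0.0067 and 0.0395 in those 2 settings. The cause of these changes was not tested, beyond the fewer libraries in each such fit.

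Replicate numbers did not pair the libraries: the deviations of same-numbered libraries correlated at -0.04, -0.09 and -0.29, and FAD5x replicate 2 correlated best with Control replicate 3 (0.29). The block is therefore only a shared number. Genes at low counts, such as Kcnj13, Kcnj5 and Kcnrg, had standard errors of 0.96, 0.80 and 0.51 on the log2 scale. Standard errors were also wide for some genes at higher counts, such as Kcne1l at 0.64 and Kcna5 at 0.63, and differences of that size were not detectable in these libraries.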

Other observations

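The 13 protein-coding Kcn genes left out by their mean count were close to silent in these libraries. Kcnv2, a silent modifier gene of retinal photoreceptors, had 0 counts in all 6 libraries. Kcna10 had 1, 7 and 4 counts in FAD5x replicates 1, 2 and 3 and 0 in each Control library, too few for a test. Of the 5 antisense genes whose names match the pattern, Kcnq1ot1, the long antisense RNA of the imprinted Kcnq1 locus, had 456, 354 and 538 counts in FAD5x and 417, 535 and 434 in Control, overlapping groups of unscaled counts. Kcnq1 itself was at 1.07, 0.533 and 2.40 CPM in FAD5x, against 1.16, 1.69 and 0.839 CPM in Control. The strand setting of the counting is unknown here, so reads of the sense and antisense genes cannot be told apart where they overlap.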
